A study of Homo sapiens with 16 samples.

Results

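Notch receptors, ligands and target genes were followed in 2 human anaplastic thyroid carcinoma cell lines as 10 genes, taken by symbol from the 60715 genes of the expression table. They are the receptors NOTCH1, NOTCH2 and NOTCH3, the ligands JAG1 and JAG2, and the targets HES1, HES2, HES4, HEY1 and NRARP. CAL62, a RAS-mutant line, and 8505c, a BRAF-mutant line, were kept for 24 h in medium with 10% serum and 10 µM U0126, the vehicle DMSO, or 1 or 10 µM DEL-22379. U0126 inhibits MEK, the kinase that activates ERK, and DEL-22379 was developed to block the dimerization of ERK. The paper found, however, that the dimerization inhibitor left ERK dimers intact in RAS-mutant thyroid cells. In BRAF-mutant thyroid cells the paper found fewer dimers, together with less phosphorylation of MEK and ERK. The lines and treatments gave 8 groups, and 2 libraries of stranded mRNA, described as biological replicates, were made for each, 16 in all. The sample labels give the doses in mM and the paper in µM, and the paper's unit is used here. Each genotype is represented by 1 cell line, so the driver mutation and any other difference between the lines cannot be told apart.

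Notch receptors are cleaved when they bind a ligand such as JAG1 or JAG2 on a neighbouring cell. The freed intracellular domain enters the nucleus, joins the DNA-binding protein RBPJ and a Mastermind coactivator, and switches on a small set of genes. Among these are HES1, HES4 and HEY1, which encode repressors of the basic helix-loop-helix family, and NRARP, an ankyrin-repeat protein that binds the intracellular domain and dampens the pathway. In mice, Hes1 is needed for normal morphogenesis of the thyroid gland.

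Of the 10 genes, 9 matched a promoter in the RefSeq-based table (GRCh38.p14, 250 bases before to 50 after each start), and HEY1 did not. The core letters that RBPJ is known to bind, TGGGAA, were searched on both strands, and no other motif overlaps them but the longer form GTGGGAA. They occurred in 2 of the 9 promoters, those of HES1 and HES4, and in 24.0% of all 35116 promoters of the same length. The HES1 window held 2 copies, which start 84 and 70 bases before the start of the gene, and 3.80% of all promoters held 2 or more. The HES4 window held 1 copy, 76 bases before the start. With 1 more letter, GTGGGAA was found in the same 2 promoters and in 6.25% of all promoters. The N box CACNAG, which HES repressors bind, occurred on either strand in 6 of the 9 promoters and in 38.0% of all. HES1 held 4 copies of it, where 0.293% of all promoters held 4 or more. The E box CACGTG occurred in 0 of the 9 and in 7.26% of all. Both windows are printed because they hold the binding letters of the pathway's own DNA-binding protein, and both genes differed between the lines. Capitals mark the letters TGGGAA, and each sequence reads 5′ to 3′ in the direction of the gene, HES1 at chr3:194135898-194136197 on the plus strand and HES4 at chr1:1000048-1000347 on the minus strand. Distances count from the RefSeq start, which lies 3 bases inside the GENCODE gene for HES1 and 75 bases inside it for HES4.
HES1: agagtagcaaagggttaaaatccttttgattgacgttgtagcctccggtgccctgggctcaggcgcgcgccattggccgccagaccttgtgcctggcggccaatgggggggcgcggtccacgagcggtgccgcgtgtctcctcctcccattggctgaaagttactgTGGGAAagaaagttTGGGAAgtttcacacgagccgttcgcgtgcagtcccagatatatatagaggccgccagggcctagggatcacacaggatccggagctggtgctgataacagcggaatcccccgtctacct
HES4: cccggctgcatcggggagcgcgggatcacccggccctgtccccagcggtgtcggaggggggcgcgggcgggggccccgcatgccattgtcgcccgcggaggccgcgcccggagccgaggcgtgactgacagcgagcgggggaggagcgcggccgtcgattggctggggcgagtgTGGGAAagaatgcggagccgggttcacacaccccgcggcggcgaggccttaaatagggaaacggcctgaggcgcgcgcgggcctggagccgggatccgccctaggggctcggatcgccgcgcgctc
A match is a description of these letters and not evidence of binding.

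Recovered library sizes were 25683055 to 43855907 reads. Values are normalized counts, that is gene counts of a library divided by 1 size factor, and values given per kb were further divided by the summed exon length of the gene. Of the thyroid follicular markers, NKX2-1 and TSHR did not exceed 10 normalized counts in CAL62 cells, and TG, TSHR, SLC5A5 and FOXE1 did not in 8505c cells, while CDH1 was at 10 or under in both lines. The summed level of 5 leukocyte markers was 32.1 to 267 in CAL62 and 27.0 to 54.7 in 8505c libraries, and that of 4 endothelial markers 9.98 to 99.1 and 511 to 2412 in the same order of lines, with CD3E, LYZ and VWF at 10 or under in both lines. Their part in the results was not tested. Differences were tested with limma on log2(normalized count + 1) over the 19127 genes that reached 10 normalized counts in 2 or more libraries. RNA of a whole culture was measured, in which fewer cells of a type and less RNA per cell cannot be told apart. A gene is said to have risen or fallen where the p-value, adjusted over all these genes by the Benjamini-Hochberg method, was under 0.05, and SE is the standard error of a log2 difference. Ranges given over the alternatives cover 12 other settings and the fits that leave out 1 library. Groups said not to overlap are described by their 2 libraries each. The share of all genes that did not overlap was not computed, so non-overlap is a description and not a test. All 10 genes passed the filter, but HES2 reached 10 in only 3 libraries and NOTCH3 in 10. HES2 passed only through treated 8505c libraries in which it was high, so its levels and reads are given as a description, and counts and medians below are over the other 9 genes.

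Vehicle-treated CAL62 and 8505c cells were compared first, to show which Notch genes each line held. CAL62 cells had more JAG2, HES1, HES4, NRARP and NOTCH1 RNA than 8505c cells, and less JAG1 and NOTCH3. Thus 5 genes were higher in CAL62 cells and 2 lower, of 9, where 53% of all genes tested passed in either direction. The median difference of the 9 genes was 0.72 on the log2 scale, against 0 over all genes tested.

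JAG2 (ENSG00000184916.9, chromosome 14 from 105140981 to 105168824, minus strand) and JAG1 (ENSG00000101384.12, chromosome 20 from 10637684 to 10673999, minus strand) were each the main ligand of one line. With DMSO, JAG2 was at 3553 and 2621 normalized counts in CAL62 and at 134 and 146 in 8505c cells. JAG1 showed the reverse, with 313 and 623 in CAL62 and 6183 and 5328 in 8505c cells. Neither ligand overlapped between the lines, and the differences were 4.44 (SE 0.25, adjusted p = 2.3e-08) for JAG2 and -3.70 (SE 0.40, adjusted p = 8.33e-06) for JAG1, as log2 of CAL62 over 8505c. Of the summed JAG1 and JAG2 level per kb, JAG2 held 94.3% and 85.9% in CAL62 and 3.06% and 3.82% in 8505c libraries. Both overlap other annotated genes on their own strand, and JAG1 also an antisense one, and whether the counting used strand is not given in the sources used here.

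Targets were also set apart by line. HES1 (ENSG00000114315.4, chromosome 3 from 194136145 to 194138732, plus strand), a repressor that is the classical Notch target, was at 487 and 743 normalized counts in vehicle-treated CAL62 and at 109 and 78.8 in 8505c cells. HES4 (ENSG00000188290.11, chromosome 1 from 998962 to 1000172, minus strand), a related repressor that mice lack, was at 277 and 419 and at 54.7 and 103. NRARP (ENSG00000198435.4, chromosome 9 from 137300482 to 137302251, minus strand) was at 626 and 498 and at 137 and 187. The lines did not overlap in any of the 3, and the log2 differences were 2.68 (SE 0.38, adjusted p = 7.07e-05) for HES1, 2.17 (SE 0.41, adjusted p = 0.000707) for HES4 and 1.80 (SE 0.27, adjusted p = 0.000121) for NRARP. HEY1 did not pass, with 91.0 and 155 in CAL62 and 100.3 and 64.8 in 8505c cells (log2 difference 0.55, SE 0.43, adjusted p = 0.297).

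Receptor levels were closer, apart from NOTCH3. NOTCH1 (ENSG00000148400.12, chromosome 9 from 136494433 to 136545786, minus strand) had 3787 and 3901 normalized counts in vehicle-treated CAL62 and 2386 and 2287 in 8505c cells, a log2 difference of 0.72 (SE 0.16, adjusted p = 0.00234). NOTCH2 (ENSG00000134250.20, chromosome 1 from 119911553 to 120069626, minus strand) had 11597 and 12027 in CAL62 and 9711 and 9226 in 8505c cells, which did not pass (0.32, SE 0.17, adjusted p = 0.143). That NOTCH2 difference did pass with scaling to equal totals (adjusted p = 0.0496) or quantile normalization (0.0342) and without either 8505c library with 10 µM DEL-22379 (0.0306 and 0.0305), in a range of 0.0305 to 0.339 over the alternatives. NOTCH3 (ENSG00000074181.9, chromosome 19 from 15159038 to 15200981, minus strand) was nearly absent from CAL62 cells, with 1.34 and 6.46 normalized counts from 1 and 7 reads, against 69.5 and 106 in 8505c cells (-4.38, SE 0.65, adjusted p = 0.000106).

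Per kb of exon, the order of levels in vehicle-treated CAL62 cells was NOTCH2 (703), JAG2 (483), NOTCH1 (370), NRARP (317), HES4 (311), HES1 (298), JAG1 (50.3), HEY1 (38.1), NOTCH3 (0.42) and HES2 (0.085). NRARP, HES4 and HES1 overlapped in their libraries, as did JAG1 and HEY1, and NOTCH3 and HES2. In 8505c cells the order was JAG1 (619), NOTCH2 (563), NOTCH1 (225), NRARP (91.4), HES4 (70.3), HES1 (45.6), HEY1 (25.5), JAG2 (21.9), NOTCH3 (9.33) and HES2 (0). There, JAG1 and NOTCH2 overlapped, as did NRARP and HES4, HES4 and HES1, and HEY1 and JAG2. The plot of levels per kb shows the opposite order of the ligands beside the similar level of NOTCH2.

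**Figure D1:**
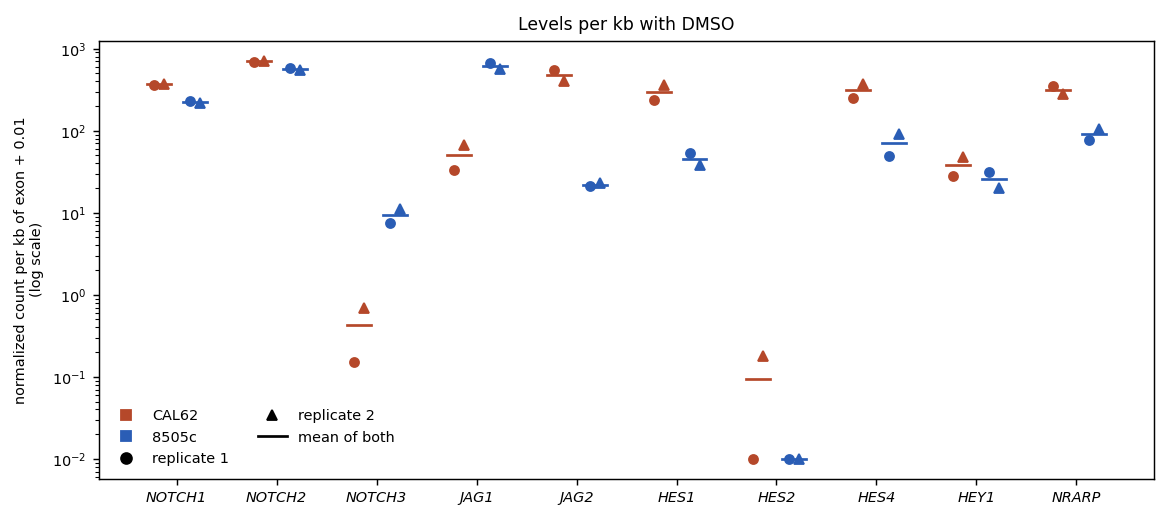
Levels of the 10 genes with DMSO, as normalized counts per kb of exon plus 0.01 on a log axis, in CAL62 and 8505c cells (points are the 2 libraries, lines their mean). JAG2 and JAG1 lie far apart in opposite directions between the lines, at 483 and 50.3 in CAL62 and 21.9 and 619 in 8505c cells.

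The treatments were then compared with DMSO within each line, to show how the Notch genes followed the inhibitors. In CAL62 cells, 10 µM DEL-22379 raised NOTCH1, NOTCH3 and NRARP, 3 of 9 genes, and lowered 0, where 33.9% of all genes tested passed. U0126 raised NOTCH2 and lowered NOTCH1, JAG2, HES1 and NRARP in that line, where 29.2% of all genes passed. The median log2 fold changes of the 9 genes were 0.97 and -0.58 in that order, against 0 and 0.05 over all genes. In 8505c cells, 10 µM DEL-22379 raised JAG2 (13.6% of all genes passed), and U0126 raised NOTCH3 and JAG2 and lowered NRARP (12.7% of all genes passed). Their medians were 0.35 and 0.18, against 0.01 and 0.02 over all genes. Comparisons with DMSO in 1 line share the same 2 DMSO libraries. The paper reports that the higher dose of the dimerization inhibitor, over the same time, lowered viability in RAS-mutant cells only. The paper also proposes that effects of this inhibitor might include off-target actions, above all at its higher dose. Whether lower viability or such actions had a part in the changes in CAL62 cells was not tested.

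**Figure D2:**
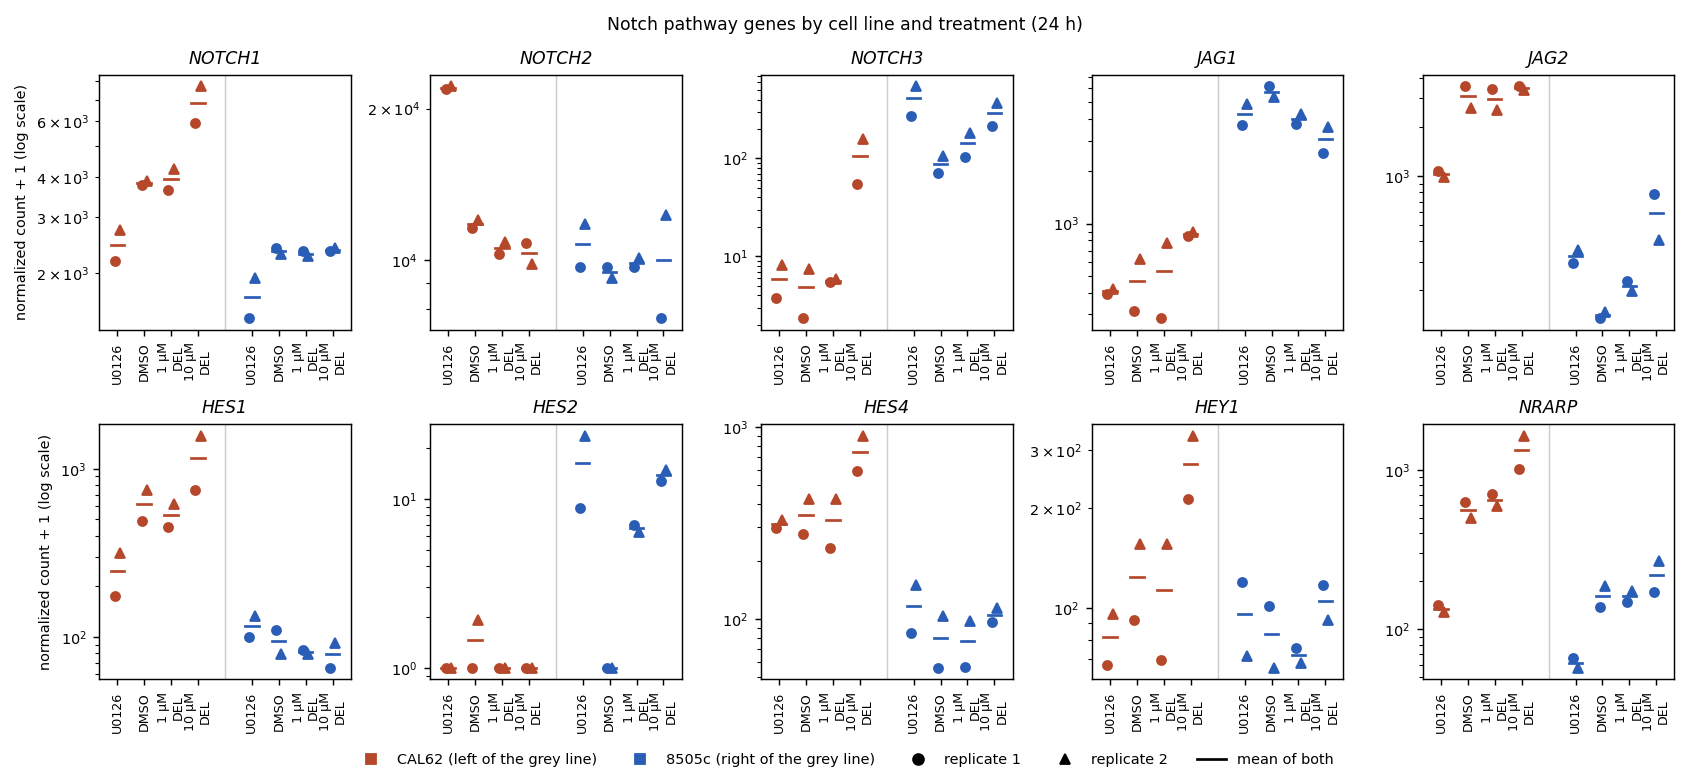
Normalized counts plus 1 (log axis) of each gene in every library, by treatment, with CAL62 left and 8505c right of the grey line (circles replicate 1, triangles replicate 2, bars the mean). NRARP was lowest with U0126 in both lines and highest with 10 µM DEL-22379 in CAL62 cells, while its other groups overlapped in 8505c cells. HES2 was at 0 in vehicle-treated 8505c cells.

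Among the receptors, NOTCH1 moved in opposite directions with the inhibitors in CAL62 cells. It was at 2170.4 and 2719 normalized counts with U0126, against 3787 and 3901 with DMSO, 3637 and 4247 with 1 µM and 5908 and 7735 with 10 µM DEL-22379. All libraries with U0126 lay below and those with 10 µM DEL-22379 above the DMSO libraries, with no overlap. NOTCH1 thus had a log2 fold change of -0.66 with U0126 (SE 0.16, adjusted p = 0.00888) and 0.81 with 10 µM DEL-22379 (SE 0.16, adjusted p = 0.00225). Without U0126 replicate 1 the fall did not pass (-0.50, adjusted p = 0.0904, in a range of 0.00122 to 0.0904 over the alternatives). NOTCH1 overlaps an antisense gene.

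In 8505c cells, NOTCH1 was at 1438 and 1922 with U0126, against 2386 and 2287 with DMSO, 2344 and 2249.7 with 1 µM and 2334 and 2388 with 10 µM DEL-22379. The libraries with U0126 were the lowest, and the other 3 groups overlapped. With U0126 it had a log2 fold change of -0.49 (SE 0.16, adjusted p = 0.0668), and with 10 µM DEL-22379 it was 0.02 (SE 0.16, adjusted p = 0.977). Without either CAL62 library with 10 µM DEL-22379, the difference with U0126 passed (adjusted p = 0.0444 and 0.0442, in a range of 0.013 to 0.416 over the alternatives).

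NOTCH2, the most abundant receptor of both lines per kb with DMSO, rose with U0126 in CAL62 cells. It was at 21890.5 and 22168 normalized counts with U0126, against 11597 and 12027 with DMSO, 10283 and 10878 with 1 µM and 10828 and 9818 with 10 µM DEL-22379. The libraries with U0126 stood apart from all others of the line, and the log2 fold change was 0.90 (SE 0.17, adjusted p = 0.00251). With 10 µM DEL-22379 it was -0.20 (SE 0.17, adjusted p = 0.418). Reads of NOTCH2 may be shared with its near-identical NOTCH2NL copies. NOTCH2NLA was far lower, at 277 and 331, and so was NOTCH2NLC, at 299.8 and 279.6 with U0126. NOTCH2NLB and NOTCH2NLR also reached 10 normalized counts in all 16 libraries. How reads that match several copies were counted is not known, so these levels do not bound the sharing.

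In 8505c cells NOTCH2 was at 9703 and 11802 with U0126, against 9711 and 9226 with DMSO, 9682 and 10097 with 1 µM and 7679.6 and 12323 with 10 µM DEL-22379. Its groups overlapped, and neither comparison with DMSO passed (0.18, SE 0.17, adjusted p = 0.567 with U0126, and 0.04, SE 0.17, adjusted p = 0.919 with 10 µM DEL-22379). Of the summed receptor level per kb, NOTCH1 held 13.8% and 16.6% in CAL62 libraries with U0126, against 34.6% and 34.4% with DMSO, 36.4% and 38.7% with 1 µM and 46.7% and 55.4% with 10 µM DEL-22379.

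NOTCH3, a receptor best known from vascular smooth muscle, had the largest log2 rise of the 10 genes in CAL62 cells with 10 µM DEL-22379. It was at 2.72 and 7.15 normalized counts with U0126, against 1.34 and 6.46 with DMSO, 4.43 and 4.84 with 1 µM and 53.6 and 157.9 with 10 µM DEL-22379. Only the libraries with 10 µM DEL-22379 (42 and 153 reads) stood above 10, and the other groups overlapped, with 1 to 8 reads a library. NOTCH3 thus had a log2 fold change of 4.48 with 10 µM DEL-22379 (SE 0.65, adjusted p = 0.000327) and of 0.40 with U0126 (SE 0.65, adjusted p = 0.698). Even after that rise the level per kb was 11.3, against 657 for NOTCH1.

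In 8505c cells NOTCH3 was at 272 and 547 with U0126, against 69.5 and 106 with DMSO, 103 and 182 with 1 µM and 213 and 366 with 10 µM DEL-22379. Libraries with U0126 or 10 µM DEL-22379 lay above those with DMSO without overlap. NOTCH3 rose with U0126 by a narrow margin (log2 fold change 2.16, SE 0.65, adjusted p = 0.0483). That call was lost without any 1 of the 4 libraries compared, with adjusted p = 0.085 and 0.301 without U0126 replicate 1 and 2 and 0.243 and 0.112 without DMSO replicate 1 and 2. It was also lost, at 0.05 to 0.0618, without any 1 of 8 other libraries, those of CAL62 with U0126 or 1 µM DEL-22379 and of 8505c with 1 or 10 µM DEL-22379, in a range of 0.0013 to 0.301 over the alternatives. With 10 µM DEL-22379 the log2 fold change was 1.69 (SE 0.65, adjusted p = 0.106, in a range of 0.00652 to 0.355 over the alternatives).

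Of the ligands, JAG2 fell with U0126 in CAL62 cells and rose with U0126 and with 10 µM DEL-22379 in 8505c cells. In CAL62 cells it was at 1076 and 987 normalized counts with U0126, against 3553 and 2621 with DMSO, 3393 and 2543 with 1 µM and 3554 and 3346 with 10 µM DEL-22379. The libraries with U0126 were the lowest and the other groups overlapped. The log2 fold change with U0126 was -1.57 (SE 0.25, adjusted p = 0.000798), and with 10 µM DEL-22379 it was 0.18 (SE 0.25, adjusted p = 0.635).

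In 8505c cells JAG2 was at 294 and 351 with U0126, against 134 and 146 with DMSO, 227 and 198 with 1 µM and 777 and 405 with 10 µM DEL-22379. Every treated library lay above both DMSO libraries. JAG2 rose by 1.19 on the log2 scale with U0126 (SE 0.25, adjusted p = 0.00952) and 1.99 with 10 µM DEL-22379 (SE 0.25, adjusted p = 0.000674). The rise with U0126 did not pass without U0126 replicate 2 (adjusted p = 0.0936) or without DMSO replicate 1 (0.0711), in a range of 0.00032 to 0.0936 over the alternatives. JAG2 then held 30.8% and 14.0% of the summed ligand level per kb in 8505c libraries with 10 µM DEL-22379, and 10.3% and 9.48% in those with U0126.

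JAG1 did not pass in any comparison with DMSO. In CAL62 cells it was at 392 and 421 normalized counts with U0126, against 313 and 623 with DMSO, 285 and 775 with 1 µM and 844 and 894 with 10 µM DEL-22379. Libraries with 10 µM DEL-22379 lay above all others, and the DMSO replicates lay far apart. JAG1 had a log2 fold change of 0.97 with 10 µM DEL-22379 (SE 0.40, adjusted p = 0.0774) and an adjusted p of 0.0322 once the replicate number was a block in the fit. JAG1 also passed without DMSO replicate 2 (1.47, adjusted p = 0.0218) and without 1 µM DEL-22379 replicate 1 or 2 (0.0145 and 0.0144), in a range of 0.0144 to 0.471 over the alternatives.

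In 8505c cells JAG1 was at 3713 and 4864 with U0126, against 6183 and 5328 with DMSO, 3753 and 4283 with 1 µM and 2536 and 3608 with 10 µM DEL-22379. DMSO libraries were the highest, without overlap with any treated group. The log2 fold change was -0.92 with 10 µM DEL-22379 (SE 0.40, adjusted p = 0.142) and -0.43 with U0126 (SE 0.40, adjusted p = 0.534). The first passed without CAL62 1 µM DEL-22379 replicate 1 or 2 (adjusted p = 0.038 and 0.0377) and with the libraries of 8505c alone (0.0056), in a range of 0.0056 to 0.5 over the alternatives.

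**Figure D3:**
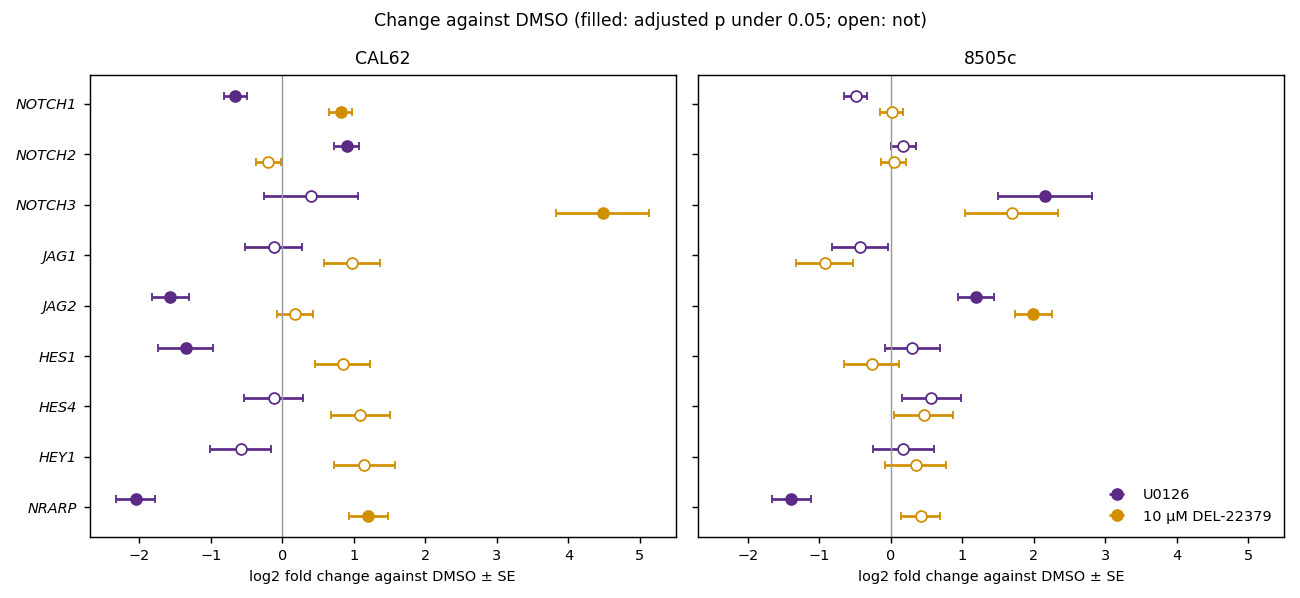
Log2 fold change against DMSO with its SE (limma, on log2(normalized count + 1)) for U0126 and 10 µM DEL-22379, in CAL62 on the left and 8505c on the right. Filled points passed an adjusted p of 0.05, HES2 is left out because it entered the genes tested only through treated libraries, and NRARP and NOTCH1 lie on opposite sides of 0 for the inhibitors in CAL62 cells.

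NRARP, the feedback inhibitor, fell with U0126 in both lines and rose with 10 µM DEL-22379 in CAL62 cells. In that line it was at 141 and 127 normalized counts with U0126, against 626 and 498 with DMSO, 708 and 592 with 1 µM and 1012 and 1637 with 10 µM DEL-22379. The groups with U0126, DMSO and 10 µM DEL-22379 did not overlap, in ascending order. NRARP changed by -2.05 on the log2 scale with U0126 (SE 0.27, adjusted p = 0.000209) and 1.20 with 10 µM DEL-22379 (SE 0.27, adjusted p = 0.00498). Without 10 µM DEL-22379 replicate 2 the rise did not pass (0.86, adjusted p = 0.0645), nor with only replicate 1 of CAL62 (0.69, adjusted p = 0.162), where the alternatives ranged over 9.86e-05 to 0.0645 apart from that last fit, which was added after the data were seen.

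In 8505c cells NRARP was at 64.7 and 56.4 with U0126, against 137 and 187 with DMSO, 148 and 173 with 1 µM and 170.4 and 268 with 10 µM DEL-22379. The libraries with U0126 were the lowest and the other 3 groups overlapped. NRARP fell with U0126 by 1.39 on the log2 scale (SE 0.27, adjusted p = 0.00626), and with 10 µM DEL-22379 the log2 fold change was 0.42 (SE 0.27, adjusted p = 0.333). The fall did not pass without U0126 replicate 2 (adjusted p = 0.0644) or without DMSO replicate 2 (0.0647), in a range of 0.000123 to 0.0647 over the alternatives.

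HES1 fell with U0126 in CAL62 cells. It was at 175 and 316 normalized counts with U0126, against 487 and 743 with DMSO, 451 and 615 with 1 µM and 743 and 1568 with 10 µM DEL-22379. The libraries with U0126 were the lowest, while replicate 1 with 10 µM DEL-22379 and replicate 2 with DMSO were level. HES1 had a log2 fold change of -1.35 with U0126 (SE 0.38, adjusted p = 0.0187) and 0.84 with 10 µM DEL-22379 (SE 0.38, adjusted p = 0.108), or 0.0127 with the replicate block. The fall did not pass without U0126 replicate 1 (-0.93, adjusted p = 0.162) or DMSO replicate 2 (-1.05, 0.0974), in a range of 0.000885 to 0.162 over the alternatives. The comparison with 10 µM DEL-22379 passed without its replicate 1 (1.38, adjusted p = 0.0231), in a range of 0.0127 to 0.647.

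HES4 and HEY1, a repressor of the HEY branch that acts in the heart and vessels, had their highest values with 10 µM DEL-22379 in CAL62 cells. HES4 was at 298 and 329 normalized counts with U0126, against 277 and 419 with DMSO, 234 and 419 with 1 µM and 588 and 899.9 with 10 µM DEL-22379. HEY1 was at 66.1 and 94.7 with U0126, against 91.0 and 155 with DMSO, 68.7 and 155 with 1 µM and 212 and 330.2 with 10 µM DEL-22379. For both genes the libraries with 10 µM DEL-22379 lay above all others of the line, and the other groups overlapped.

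With 10 µM DEL-22379 the log2 fold changes were 1.09 for HES4 (SE 0.41, adjusted p = 0.0577) and 1.15 for HEY1 (SE 0.43, adjusted p = 0.0555). With the replicate block their adjusted p were 0.00141 and 0.00185, so that 7 genes passed in that comparison, NOTCH1, NOTCH3, JAG1, HES1, HES4, HEY1 and NRARP, where 43.9% of all genes passed with the block. Over the fits that leave out 1 library, the log2 fold changes ran over 0.79 to 1.40 for HES4 and 0.77 to 1.53 for HEY1. Over the alternatives the adjusted p ran over 0.00141 to 0.302 for HES4 and 0.00185 to 0.307 for HEY1. With U0126 the log2 fold changes were -0.12 (SE 0.41, adjusted p = 0.87) and -0.58 (SE 0.43, adjusted p = 0.34).

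In 8505c cells HES1, HES4 and HEY1 did not pass with either inhibitor. HES1 ranged over 64.6 to 133 normalized counts in the 8 libraries, HES4 over 54.7 to 149 and HEY1 over 64.8 to 118.5, and each treated group overlapped the DMSO group. Their log2 fold changes were 0.30, 0.57 and 0.18 with U0126 (adjusted p = 0.671, 0.412 and 0.843) and -0.27, 0.46 and 0.35 with 10 µM DEL-22379 (adjusted p = 0.685, 0.489 and 0.632).

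HES2 (ENSG00000069812.11, chromosome 1 from 6412418 to 6424670, minus strand), a less studied repressor of the HES family, was near the limit of detection. In 8505c cells it was at 7.80 and 22.6 normalized counts with U0126, against 0 and 0 with DMSO, 6.03 and 5.37 with 1 µM and 11.8 and 13.8 with 10 µM DEL-22379, from 10 and 26, 0 and 0, 6 and 6, and 10 and 17 reads. Every treated 8505c library held reads of HES2 and neither DMSO library did. A limit of 3 reads per DMSO library was taken as what a count of 0 allows. The treated mean of HES2 was 4.56 times that limit with U0126, 1.71 times with 1 µM and 3.84 times with 10 µM DEL-22379. These ratios leave out the error of the few treated reads and are not lower bounds. No test is given, because those treated libraries brought HES2 past the filter. In CAL62 cells HES2 had 1 read in 1 DMSO library and 0 in the other 7 libraries.

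At 1 µM DEL-22379, 0 of the 9 genes passed with limma in either line, where 0% of all genes passed in CAL62 and 0.0157% in 8505c cells. Before adjustment, p was under 0.05 for 0 of the genes in CAL62 and for 1 in 8505c cells, JAG2, and edgeR, DESeq2 and the replicate block called 0 in both lines. Log2 fold changes ran over -0.20 to 0.43 in CAL62 cells. They ran over -0.52 to 0.66 in 8505c cells. The difference between the lines in the response to 1 µM had 0 genes that passed, where 0% of all genes did, and 0 of the 9 with an unadjusted p under 0.05.

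The inhibitors were also set against each other at the same dose of 10 µM and the same time. In CAL62 cells, 1 gene was higher with U0126 than with 10 µM DEL-22379 and 8 were lower, where 43.1% of all genes passed and the median was -1.73 for the 9 genes, against 0 over all genes. NOTCH2 was the gene with more RNA under U0126 (log2 difference 1.10, SE 0.17, adjusted p = 0.000307), and HES2, with 0 reads in these libraries, was at 0 normalized counts in both groups. NOTCH3 had -4.08 (SE 0.65, adjusted p = 0.000315), NRARP -3.26 (SE 0.27, adjusted p = 2.91e-06), HES1 -2.19 (SE 0.38, adjusted p = 0.000569), JAG2 -1.74 (SE 0.25, adjusted p = 0.000162), HEY1 -1.73 (SE 0.43, adjusted p = 0.00584) and NOTCH1 -1.48 (SE 0.16, adjusted p = 1.87e-05).

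HES4 (-1.21, SE 0.41, adjusted p = 0.0304) and JAG1 (-1.09, SE 0.40, adjusted p = 0.0417) passed by less in CAL62 cells. The call of HES4 was lost without U0126 replicate 1 or 2 (adjusted p = 0.122 and 0.0831) or 10 µM DEL-22379 replicate 2 (0.192), in a range of 0.000499 to 0.192 over the alternatives. HEY1 was lost without U0126 replicate 1 (0.0541) or 10 µM DEL-22379 replicate 2 (0.0569), in a range of 7.56e-05 to 0.0569. JAG1 was lost without any 1 of the 4 libraries compared (0.104 to 0.14) and without any 1 of 4 8505c libraries, those with DMSO or 1 µM DEL-22379 (0.0523 to 0.0533), in a range of 0.00568 to 0.14. Leaving out 1 library thus left 6 to 9 genes.

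In 8505c cells, NRARP alone of the 9 genes passed between the inhibitors (log2 difference of U0126 over 10 µM DEL-22379 -1.81, SE 0.27, adjusted p = 0.00228), where 9.94% of all genes passed. NOTCH1 (-0.51, SE 0.16, adjusted p = 0.0677) and JAG2 (-0.80, SE 0.25, adjusted p = 0.0653) missed the threshold. JAG2 passed without 10 µM DEL-22379 replicate 2 (-1.27, adjusted p = 0.00775, range 0.00775 to 0.513) and NOTCH1 without CAL62 10 µM DEL-22379 replicate 1 or 2 (0.0441 in both fits, range 0.0136 to 0.437). The count was 3 with scaling to equal totals.

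Responses were compared between the lines as the log2 fold change in CAL62 minus that in 8505c cells. With 10 µM DEL-22379, 2 of 9 genes had a higher and 1 a lower response in CAL62 cells, where 14.4% of all genes passed, and with U0126 0 had a higher and 1 a lower response, where 5.69% passed. JAG2 was lower in both, by -1.82 with 10 µM DEL-22379 (SE 0.36, adjusted p = 0.00691) and -2.76 with U0126 (SE 0.36, adjusted p = 0.00127). The other genes for 10 µM DEL-22379 were JAG1 (1.90, SE 0.56, adjusted p = 0.0422) and NOTCH1 (0.80, SE 0.23, adjusted p = 0.0359). HES2 had at most 1 read in any CAL62 library, where a fall cannot be seen.

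The JAG2 differences passed in every fit without 1 library, with adjusted p of at most 0.0286 and 0.0106. NOTCH1 did not pass without 9 libraries in turn (adjusted p = 0.0534 to 0.127), the 4 CAL62 and 8505c DMSO libraries, CAL62 10 µM DEL-22379 replicate 2 and both 8505c libraries at each dose of DEL-22379, in a range of 0.00635 to 0.127 over the alternatives. JAG1 did not pass without 13 of the 16 libraries in turn (adjusted p = 0.0515 to 0.129), all but CAL62 DMSO replicate 2 and both CAL62 libraries with 1 µM DEL-22379, in a range of 0.00606 to 0.129. HES1, NRARP, HEY1 and HES4 had differences of 1.11, 0.79, 0.80 and 0.63 for 10 µM DEL-22379 (adjusted p = 0.187, 0.191, 0.401 and 0.501), and NOTCH3 2.79 (SE 0.92, adjusted p = 0.062). NOTCH3 passed without CAL62 DMSO replicate 2 (3.62, adjusted p = 0.0226) or 10 µM DEL-22379 replicate 1 (3.56, 0.0257), in a range of 0.00284 to 0.218, and HES1 without that last library (0.0496, range 0.0302 to 0.549). For U0126, NOTCH2 (0.72, SE 0.25, adjusted p = 0.12) passed without either 8505c library with 10 µM DEL-22379 (0.0229 in both fits, range 0.0229 to 0.347). HES1 had a difference of -1.65 for U0126 (SE 0.54, adjusted p = 0.102), which passed with DESeq2 (0.0391) and with only replicate 1 of CAL62 (0.0253), in a range of 0.00722 to 0.313. With the replicate block, NOTCH3 (adjusted p = 0.00284) and HES1 (0.0302) passed for 10 µM DEL-22379, and HES1 (0.00722), NOTCH2 (0.041) and NOTCH3 (0.0452) for U0126, where the NOTCH3 difference was -1.76 (adjusted p = 0.333 without the block). An effect that passed in one line only was not shown to differ between the lines unless named here.

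The replicates of CAL62 cells differed in several Notch genes. With DMSO, replicate 2 was higher than replicate 1 on the log2 scale by 1.67 for NOTCH3, from 7 and 1 reads, 0.99 for JAG1, 0.76 for HEY1, 0.61 for HES1 and 0.60 for HES4, and lower by 0.44 for JAG2 and 0.33 for NRARP, where the median of all genes was 0. Between libraries of the same number, the log2 difference of 10 µM DEL-22379 over DMSO was 1.08 and 1.10 for HES4, 1.21 and 1.09 for HEY1, 4.54 and 4.41 for NOTCH3 and 0.64 and 0.99 for NOTCH1. NRARP (0.69 and 1.72) and JAG1 (1.43 and 0.52) differed more between the numbers, but had the same direction in both. For U0126 over DMSO the differences were -2.14 and -1.96 for NRARP, -1.72 and -1.41 for JAG2, -1.47 and -1.23 for HES1 and 0.92 and 0.88 for NOTCH2.

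**Figure D4:**
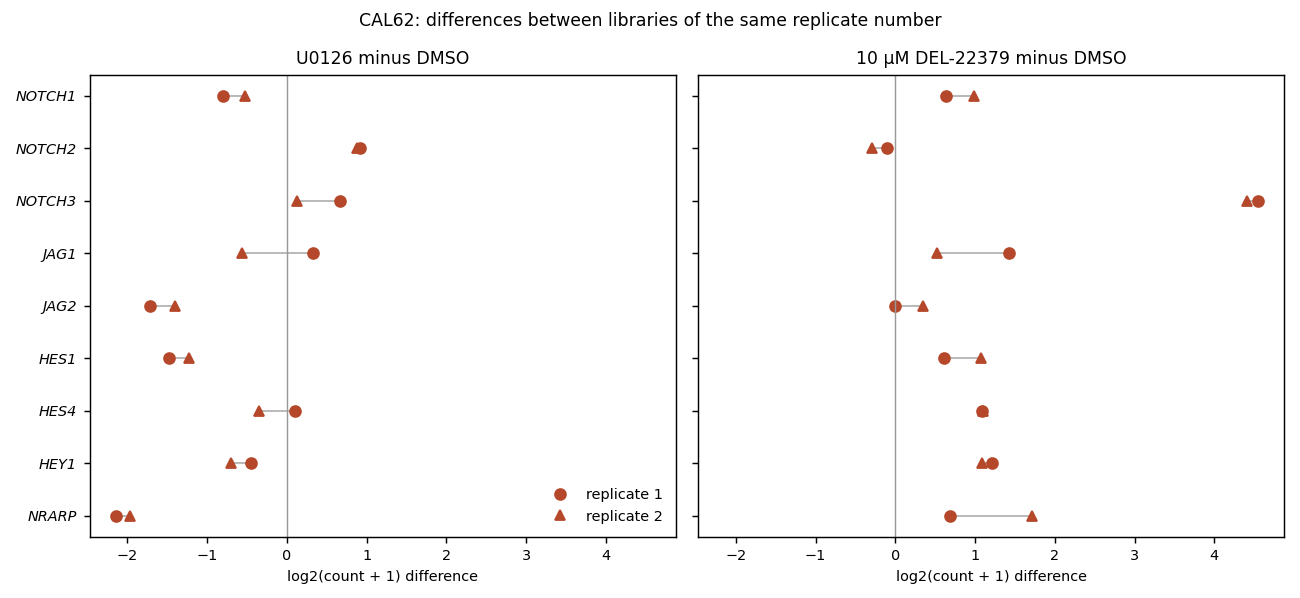
Differences between CAL62 libraries of the same replicate number on the log2(normalized count + 1) scale, U0126 minus DMSO on the left and 10 µM DEL-22379 minus DMSO on the right, with HES2 left out because it had 1 read in all. HES4 and HEY1 have nearly the same difference in both numbers with 10 µM DEL-22379, while JAG1 and NRARP have unequal ones.

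ERK output genes, read beside the Notch genes, followed U0126 in both lines. DUSP6, a phosphatase that ERK induces against itself, was at 178 and 169 normalized counts with U0126 and 2014 and 1863 with DMSO in CAL62 cells, and at 186 and 95.5 with U0126 and 2177 and 2273 with DMSO in 8505c cells. All 6 genes of that list (DUSP6, SPRY2, SPRY4, ETV4, ETV5 and EGR1) fell with U0126 in both lines, with SPRY2 and EGR1 in 8505c cells past the threshold by little (adjusted p = 0.0299 and 0.0421). Both calls were lost when any 1 of the 4 libraries compared was left out (0.0961 to 0.179 for SPRY2 and 0.0994 to 0.226 for EGR1), and that of EGR1 was also lost without either library of CAL62 with DMSO or 8505c with 1 µM DEL-22379 (0.0553 to 0.0583). Over the alternatives the adjusted p ran over 0.000449 to 0.179 for SPRY2 and 0.00109 to 0.226 for EGR1. With 10 µM DEL-22379, SPRY4, ETV5 and EGR1 rose in CAL62 cells and 0 of 6 fell, and SPRY2 and SPRY4 fell in 8505c cells and 0 rose. ETV5 (adjusted p = 0.0302) did not pass without any 1 of the 4 libraries compared (0.0525 to 0.152, range 0.0121 to 0.152), nor did SPRY2 (0.0216) without DMSO replicate 1 or 2 or 10 µM DEL-22379 replicate 1 (0.119, 0.0842 and 0.166, range 0.000396 to 0.166). EGR1, an immediate-early transcription factor, was at 69316 and 214018 in CAL62 cells with 10 µM DEL-22379 and 3328 and 4108 with DMSO. Their part in the Notch results was not tested.

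Of 49 other genes of the pathway, 44 could be tested. With 10 µM DEL-22379, 15 were raised and 7 lowered in CAL62, where 33.9% of all genes passed, and 4 were raised and 1 lowered in 8505c cells, where 13.6% did. With U0126, 9 were raised and 4 lowered in CAL62 (29.2% of all genes), and 3 were raised and 4 lowered in 8505c cells (12.7%). The medians in that order were 0.40, 0.17, 0.29 and 0.19 on the log2 scale, against 0, 0.01, 0.05 and 0.02 over all genes tested.

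In CAL62 cells with 10 µM DEL-22379, the 4 genes with the smallest p were NUMB and NUMBL, adaptors that oppose Notch, the ubiquitin ligase DTX3L and the coactivator MAML2. NUMB was at 4089 and 3704 normalized counts against 2157 and 2142 with DMSO (0.86, SE 0.09, adjusted p = 5.47e-05) and NUMBL at 387 and 463 against 92.3 and 153 (1.82, SE 0.29, adjusted p = 0.00058). DTX3L was at 662 and 631 against 1191 and 1487 (-1.04, SE 0.15, adjusted p = 0.000251) and MAML2 at 553 and 338 against 910.0 and 1086 (-1.20, SE 0.19, adjusted p = 0.000547). None of these groups overlapped. With U0126 they were HES6, an HES protein that opposes HES1, at 621 and 597 against 2114 and 1763 (-1.66, SE 0.16, adjusted p = 2.42e-05), the corepressors TLE4 (2.65, SE 0.38, adjusted p = 0.000351) and TLE1 (1.56, SE 0.29, adjusted p = 0.00196), and the gamma-secretase subunit APH1B (0.98, SE 0.19, adjusted p = 0.0028).

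In 8505c cells with 10 µM DEL-22379, they included DLK2, a non-canonical ligand, at 179.8 and 143 normalized counts against 58.1 and 51.8 with DMSO (1.53, SE 0.18, adjusted p = 0.00052), HES6 (0.98, SE 0.16, adjusted p = 0.00299) and the ubiquitin ligase MIB2 (0.75, SE 0.20, adjusted p = 0.0276). With U0126 they were DTX3L (1.04, SE 0.15, adjusted p = 0.000954), the coactivator MAML3, at 214 and 159 against 771 and 779 (-2.07, SE 0.29, adjusted p = 0.00102), the ligand DLL4, at 3.90 and 2.60 against 50.1 and 46.4 (-3.55, SE 0.79, adjusted p = 0.0117), and the corepressor TLE3 (-1.34, SE 0.32, adjusted p = 0.0163). MIB2 did not pass without DMSO replicate 1 or 2 or 10 µM DEL-22379 replicate 1 (adjusted p = 0.163, 0.0745 and 0.265, range 0.00388 to 0.265). DLL4 was lost without any 1 of its 4 libraries (0.0545 to 0.0938, range 0.000101 to 0.0938), and TLE3 without U0126 replicate 1 or 2 or DMSO replicate 1 (0.076, 0.102 and 0.159, range 0.00135 to 0.159).

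DLL1, DLL4 and HES7 in CAL62 cells fall outside the rule for naming genes and were chosen after their values were seen. Their values are therefore a description. The ligand DLL1 was at 199 and 637 normalized counts with 10 µM DEL-22379, against 1.34 and 23.1 with DMSO (log2 fold change 5.57). With DMSO, DLL1 had 1 and 25 reads and DLL4 5 and 21. The ligand DLL4 was at 165 and 347 against 6.69 and 19.4 (4.26). HES7, an oscillating repressor of somite formation in mice, was at 585 and 1177 against 89.7 and 210.5 (2.58). None of the 3 overlapped between these groups. All 3 were lower in replicate 1 than in replicate 2 of both groups.

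The genes most like HES1, HEY1 and NRARP over the 16 libraries were found by Pearson's r of log2 values after the mean of each line was subtracted, as a description. For NRARP they were UBALD2 (0.981), FKBP4, a heat shock protein 90 cochaperone (0.964), and ZC3H18 (0.958). For HEY1 they were HES7 (0.911), MAP3K9 (0.905) and GEM (0.904), and for HES1 THBS2 (0.917), SLC20A1 (0.913) and EMC9 (0.902). Within CAL62 cells alone r was 0.94 to 0.985 for these 9 pairs, while within 8505c cells it was 0.166 for EMC9 with HES1 and 0.984 for UBALD2 with NRARP. These libraries share treatments and replicate numbers.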

How the data were processed

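RNA of CAL62 and 8505c cells was measured as stranded mRNA libraries, sequenced as paired reads of 51 bases. The signal values deposited by the authors are gene counts that were scaled by 1 factor for each library and then rounded to 2 decimals, as the values show. The genome build, GRCh38, comes from the submitters' processing notes, while the aligner, the counting tool and the gene models used were not found in the paper or the labels. Division by the value of 1 read gave whole reads, within 0.02, for 100% of the values under 200 that were checked. In replicate 1 of 8505c with 1 µM DEL-22379, a read is worth 1.0052, and 6 reads of HES2 stood at 6.03 normalized counts. Groups were taken from the sample labels, and the columns from their headers.

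The filter kept 19127 of 60715 genes, those that reached 10 normalized counts in 2 or more libraries. For log2(value + 1), limma 3.58.1 (R 4.3.3) estimated a mean per group over all 16 libraries in 8 groups, with trended and robust variance moderation, 8 residual and 2.98 to 4.48 prior degrees of freedom. Tests were two-sided and adjusted over all genes by Benjamini-Hochberg. With 2 libraries per group the precision is set mainly by their spread, and all groups share it. The whole reads went through edgeR 4.0.16 (quasi-likelihood test) and DESeq2 1.42.0 as alternatives.

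Same-numbered CAL62 libraries deviated together from their group means in all 6 group pairs (r across genes 0.22 to 0.504), which was read as pairing. The labels do not state it. In 8505c cells r was 0.088 to 0.122. Over genes with a mean above 100, r was 0.275 to 0.815 in CAL62 and 0.209 to 0.356 in 8505c cells. The value of 0.815 is that of DMSO with 1 µM DEL-22379, and the other CAL62 pairs reached at most 0.392. Over those genes the lines thus differ little apart from that pair. Values with a replicate block are given beside CAL62 results where the block changes a call, and for 8505c cells in the closing section.

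All 10 genes were named, and other genes of the pathway only as the 4 of smallest p, at most, among those that passed in each comparison of 10 µM DEL-22379 or U0126 with DMSO, 1 of which is not reported here. Of protein-coding genes whose mean reached 50, the 3 nearest were named for HES1, HEY1 and NRARP. The members, the gene lists and the tests were chosen with earlier results of these data known. Gene positions and exon lengths are those of GENCODE release 29 on GRCh38, which held 58453 of the 60715 gene IDs, version numbers aside. Alternatives covered the pseudocount, the filter, the scaling, the variance steps, the block, the tool, the libraries in the fit and each library left out. After seeing the data, 2 fits were added, each holding a single replicate number of CAL62.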

Additional observations from a re-analysis of the deposited data

Results flagged for a closer look

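Responses of 3 genes to 10 µM DEL-22379 differed between the lines in the interaction term of limma, given as the log2 fold change in CAL62 minus that in 8505c cells. The difference was 0.80 for NOTCH1 (SE 0.23, adjusted p = 0.0359). For JAG1 it was 1.90 (SE 0.56, adjusted p = 0.0422). For JAG2 it was -1.82 (SE 0.36, adjusted p = 0.00691). NOTCH1 kept its call in 8 of 11 other settings and JAG1 in 7, and both lost it in some fits without 1 library. JAG2 kept its call in all 11 settings and in every fit without 1 library. Responses to U0126 differed for JAG2, by -2.76 (SE 0.36, adjusted p = 0.00127). JAG2 thus had a lower response in CAL62 cells to both inhibitors, and the DMSO libraries are shared by these 2 differences. The fitted differences of HES2, -4.25 for 10 µM DEL-22379 and -4.32 for U0126, are descriptions only. They rest on 0 reads in vehicle-treated 8505c cells and at most 1 read in any CAL62 library, depend on the pseudocount, and could take no other sign.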

How the results depend on the processing

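Of 3547 values of the 10 genes under alternatives, 3385 stayed on the same side of the threshold, of which 88 that did not pass changed sign, 87 no longer passed, 75 newly passed and 0 reversed with a call. Counts here are over all 10 genes, HES2 included, and its calls among them are not results. The share of all genes that passed was not set beside the count of each alternative. A change in a count can therefore not be told apart from a change over all genes. Without HES2, the main fit in 8505c cells called 1 gene up for 10 µM DEL-22379, and 2 up and 1 down for U0126. For the difference between the lines it called 2 up and 1 down with 10 µM DEL-22379, and 1 down with U0126. For 10 µM DEL-22379 in CAL62 cells the count of 3 genes became 5 with a pseudocount of 5, with quantile normalization and with DESeq2, and 7 with the replicate block, and 2 to 6 without 1 library. For U0126 in CAL62 cells the count of 5 became 3 with only replicate 2 of CAL62 and 3 to 5 without 1 library. In 8505c cells the count of 2 for 10 µM DEL-22379 became 1 with a filter of 50, 4 with that line's libraries alone and 4 when CAL62 was held to replicate 1 or to replicate 2, and the count of 4 for U0126 became 1 to 5 without 1 library, 1 without U0126 replicate 2. Between the inhibitors in 8505c cells the count of 1 became 3 with equal totals, the block or DESeq2 and 2 with quantile normalization, edgeR, that line alone and only 1 replicate number of CAL62, and 1 to 2 without 1 library. For the difference between the lines, the count of 4 for 10 µM DEL-22379 became 2 with equal totals, edgeR or no variance trend or robust step, 6 with the block, and 2 to 5 without 1 library. The count of 2 for U0126 became 1 with a filter of 50, edgeR or only replicate 2 of CAL62, 5 with the block, and 1 to 3 without 1 library. HES2 reached at most 22.6 normalized counts in any library, so it left the genes tested with the filter of 50. With edgeR its line differences did not pass. The cause of the other changes was not tested. Counts between the inhibitors in CAL62 cells (9) and between the lines with DMSO (7) stayed within 1.5 times under each alternative. In 8505c cells the pairing behind the replicate block was weaker over all genes. With that block in limma, the adjusted p was 0.00652 for NOTCH3 with 10 µM DEL-22379 and 0.013 for NOTCH1 with U0126. Scaling to equal totals moved the median of all genes by over 0.1 for 10 µM DEL-22379 in 8505c cells (0.01 to 0.14), between the lines with DMSO (0 to 0.12) and for the line difference with 10 µM DEL-22379 (-0.03 to -0.22). On whole reads, edgeR called 6311 and 5364 of all genes for 10 µM DEL-22379 and U0126 in CAL62 cells, and 2515 and 2463 in 8505c cells. Depth limits HES2 and, in CAL62 cells, NOTCH3. Where leaving out a library left its group with 1, that library's spread was taken from the other groups.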
